A study of Mus musculus with 2 samples.

Results

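The prostanoid receptors are the G protein-coupled receptors for prostaglandins, prostacyclin and thromboxane, lipid mediators made from arachidonic acid by the cyclooxygenases. They signal through different G proteins. The prostacyclin receptor Ptgir, the prostaglandin E receptors Ptger2 and Ptger4 and the prostaglandin D receptor Ptgdr stimulate adenylyl cyclase and raise cAMP, which in T cells is known to dampen signalling from the antigen receptor through protein kinase A. The thromboxane receptor Tbxa2r, the prostaglandin F receptor Ptgfr and the prostaglandin E receptor Ptger1 raise calcium, and the prostaglandin E receptor Ptger3 and the second prostaglandin D receptor Ptgdr2 lower cAMP through inhibitory G proteins.

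These 9 genes were taken by gene symbol from the 4331 genes with a named probe, and they carry 11 of the 8014 probes. The family was picked on the array ratios themselves, since it was selected from an earlier reading of these data in which Ptgir, Ptger4 and Tbxa2r stood out. Its values are therefore a description, with no test. RNA from LatY136F CD4+ alpha beta T cells was hybridised together with RNA from wildtype CD4+ alpha beta T cells on each of 2 two-colour arrays. LatY136F replaces a tyrosine with a phenylalanine in Lat, the adaptor that links the T cell receptor to phospholipase C signalling; the wildtype cells carry no such change. Both kinds of cell came from mouse spleen by magnetic anti-CD4 beads and a cell sorter, untreated as far as the labels say. The sources used here do not name the strain, age or number of the mice, or any pooling. Array 1 held LatY136F RNA in channel 2 and wildtype RNA in channel 1, and array 2 held them the other way round. This dye-reversal pair was counted as 1 biological comparison. It has no spread between animals, and no p-value was computed.

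The deposited values are 1 log ratio per probe and array. They were read as log10 because the largest value on array 1 was exactly 2, a value held by only 1 probe. The log base is therefore inferred on thin grounds. Which channel is on top of the ratio is unstated. Ratios were taken as channel 2 over channel 1, and array 2 was turned, so that each value below is, in the likely direction, a log2 ratio of LatY136F over wildtype. Array 2 was turned because the labels name a dye reversal and the deposited columns correlated negatively over probes. Pearson r was -0.21 but Spearman rho only -0.06, as a description across probes. Neither point tells which channel is on top. The title of array 1 names wildtype before LatY136F and that of array 2 the reverse, without saying which is on top. The choice of channel 2 over channel 1 rests on Th2 genes coming out higher, as published descriptions of these mice have it. Of 9 Th2 genes measured, 5 were higher and none was lower, where 4.20% of all genes were higher and 0.970% lower. In the opposite direction every "higher" here would be "lower". A gene is called higher or lower when each array put it 2-fold or more from equality on the same side, and ± is 0.5 times the gap between its arrays, a spread that may be purely technical. The median of that quantity over all genes was 0.15. Ratios hold no signal level, so how strongly a receptor was expressed, and whether a probe was near background, is unknown. In such bulk RNA, more cells expressing a receptor and more receptor RNA per cell cannot be told apart.

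Of the 9 receptor genes, 2 were called higher in LatY136F cells, Ptgir and Ptger4, and 1 was called lower, Tbxa2r. Over all genes, 4.20% were called higher and 0.970% lower. Both receptors called higher raise cAMP and the receptor called lower raises calcium. The grouping rests on 4, 3 and 2 genes, and it is a description of how these members lay.

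**Figure D1:**
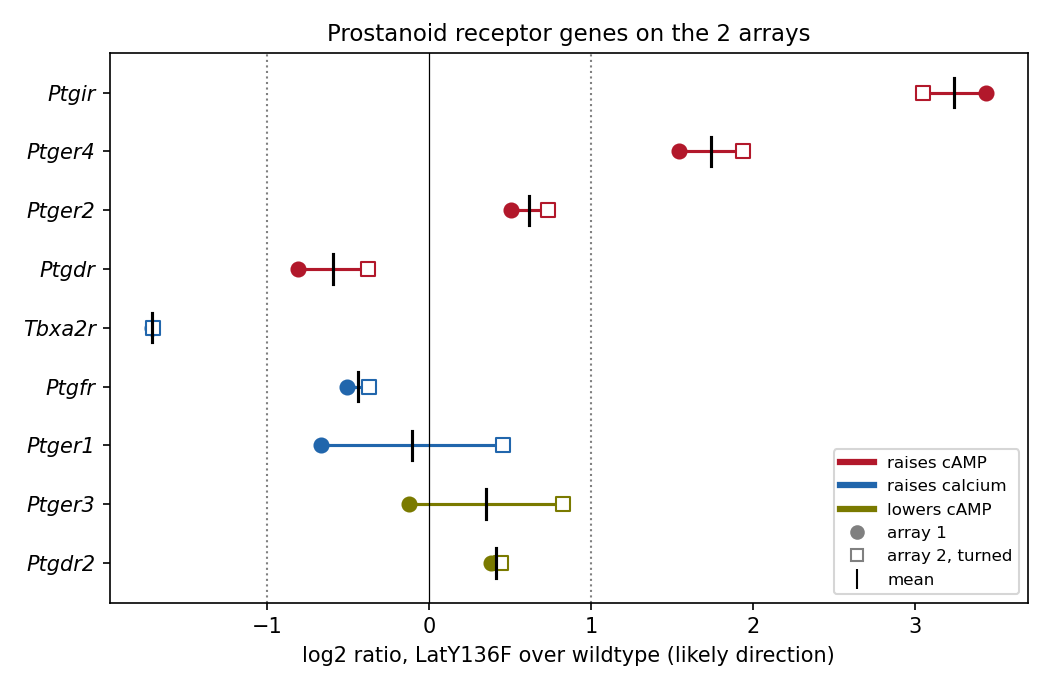
Log2 ratio of LatY136F over wildtype (x axis) for each of the 9 receptor genes (rows), with array 1 as a filled circle, array 2 after turning as an open square and their mean as a black tick; colour gives the coupling and dotted lines mark 2-fold. Ptgir and Ptger4 lie beyond the upper line on both arrays, Tbxa2r lies below the lower line with both symbols at -1.71, and the symbols of Ptger1 and Ptger3 lie on either side of 0.

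The sequences before the start sites of the 3 called genes are shown because they are the members whose RNA differed by the calling rule. They come from RefSeq on GRCm38.p6 and hold 250 bases before and 50 after the start, 5′ to 3′ on the strand of the gene. Capitals mark matches on either strand to the CCAAT box, to the GC box GGGCGG and to the core of the cAMP response element, TGACG. The Ptgir stretch is chr7:16906240-16906539 on the plus strand, the Ptger4 stretch chr15:5244138-5244437 on the minus strand and the Tbxa2r stretch chr10:81328453-81328752 on the plus strand, the downstream one of the 2 start sites listed for that gene.
Ptgir: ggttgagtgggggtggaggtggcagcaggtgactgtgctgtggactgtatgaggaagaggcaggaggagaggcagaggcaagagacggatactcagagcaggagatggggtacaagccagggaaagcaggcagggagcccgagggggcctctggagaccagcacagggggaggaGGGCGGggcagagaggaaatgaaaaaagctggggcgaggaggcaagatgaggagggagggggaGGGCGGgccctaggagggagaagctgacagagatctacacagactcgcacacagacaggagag
Ptger4: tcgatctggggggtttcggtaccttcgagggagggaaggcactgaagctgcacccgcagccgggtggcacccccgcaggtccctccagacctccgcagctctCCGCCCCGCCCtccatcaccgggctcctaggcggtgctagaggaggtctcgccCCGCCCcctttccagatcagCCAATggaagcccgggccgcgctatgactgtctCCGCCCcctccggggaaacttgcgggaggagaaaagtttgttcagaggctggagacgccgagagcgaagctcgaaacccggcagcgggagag
Tbxa2r: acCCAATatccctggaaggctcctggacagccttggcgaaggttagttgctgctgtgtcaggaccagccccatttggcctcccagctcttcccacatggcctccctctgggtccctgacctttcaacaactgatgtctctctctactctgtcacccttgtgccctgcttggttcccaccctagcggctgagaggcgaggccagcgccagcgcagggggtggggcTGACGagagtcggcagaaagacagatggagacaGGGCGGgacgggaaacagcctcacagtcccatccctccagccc

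Ptgir had 2 GC boxes and no CCAAT in this window. Ptger4 had 4 GC boxes, of which the first pair overlaps, and 1 CCAAT. The Tbxa2r stretch had 1 of each and 1 TGACG, while the stretch at its upstream start site, chr10:81328018-81328317, had none of these. Over 32851 promoters of the same length, 35.7% held a GC box, 37.4% a CCAAT and 20.8% a TGACG, so such matches are common. The full cAMP response element TGACGTCA, which contains that core, was held by 1.79% of promoters and the TATA box TATAAA by 13.6%; neither was found in any of the 9 stretches listed for 8 receptors. A GATA factor site, searched as GATAA (25.4% of promoters), was found once before Ptger2 and in none of the 3 sequences above. The GC content was 62.0% for Ptgir, 67.0% for Ptger4 and 61.7% for Tbxa2r, against a median of 52.7% over all promoters (quartiles 45.7% and 61.7%). Ptger2 had 37.7%, the lowest of the 8 receptors with a sequence. No binding was measured, and a match does not show a used site.

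Ptgir is the receptor for prostacyclin, a mediator best known for relaxing vessels and holding back platelets. It stood at 3.44 on array 1 and 3.05 on array 2. Both values lie far above the 2-fold line. The mean of 3.24 ± 0.20 is a 9.45-fold higher level in LatY136F cells (10.8-fold on array 1 and 8.26-fold on array 2), and it ranked 18 from the top among 4331 genes. A single probe measured it. Its ± was ordinary, since 41.7% of all genes had one at least as large.

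Ptger4 is one of the pair of prostaglandin E receptors that raise cAMP and the one with the higher affinity for that ligand. It stood at 1.54 on array 1 and 1.94 on array 2, so it too was high with both dye orientations. Its mean of 1.74 ± 0.20 corresponds to 3.34-fold and ranked 70 from the top. It passed 3-fold on array 2 (3.83-fold) but not on array 1 (2.91-fold). Like Ptgir, it was measured by a single probe.

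Ptger2, the other cAMP-raising prostaglandin E receptor, stood at 0.50 and 0.73 on arrays 1 and 2 and was not called (0.62 ± 0.11). This average hides a disagreement between its 2 probes. Probe 636134 gave 1.14 on array 1 and 1.16 on array 2, a mean of 2.22-fold, and would have been called. Probe 636184 gave -0.13 on array 1 and 0.29 on array 2, with no common sign. The probe means lay 1.07 apart, and 12 of 268 genes with 2 probes (4.48%) had a gap at least that wide, where the median gap was 0.22. Which of the probes reports the Ptger2 transcript better cannot be read from the ratios. With the stronger probe in place of the average, 3 of 9 receptors would be called higher, all of them cAMP-raising.

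Ptgdr, the prostaglandin D receptor that raises cAMP, lay the other way from the rest of its group. It stood at -0.81 on array 1 and -0.38 on array 2 (-0.59 ± 0.22), below 0 on both but short of the threshold. The 4 cAMP-raising receptors therefore did not share a sign: 3 were above 0 on both arrays and Ptgdr below. Their median was 1.18, where the median over all genes was 0.0004.

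**Figure D2:**
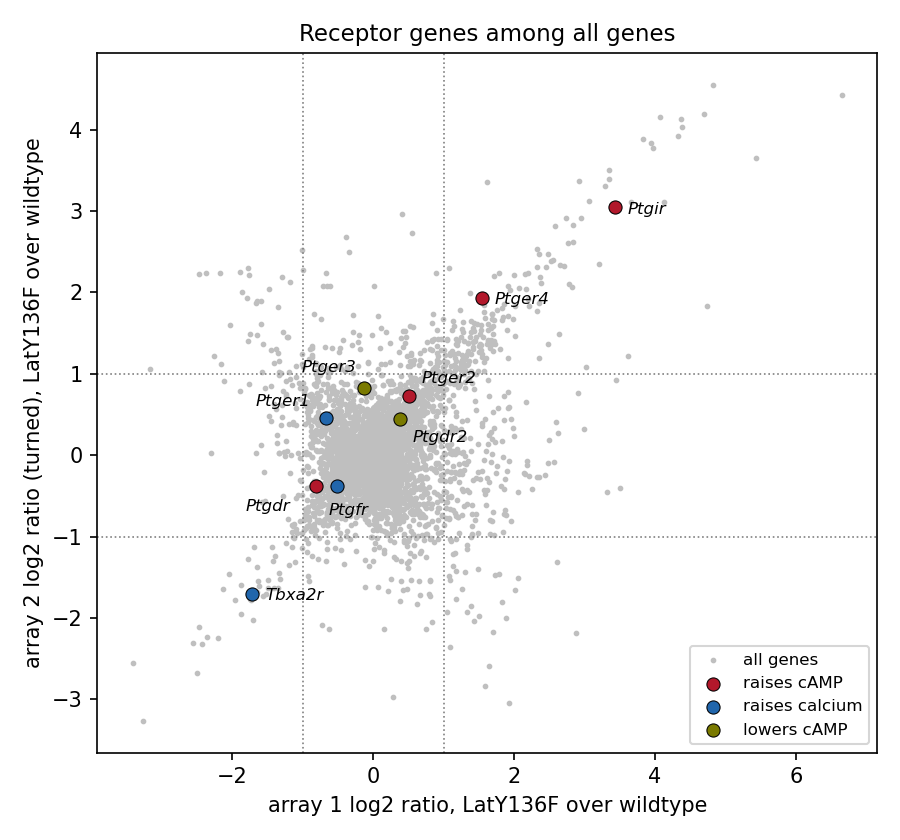
Log2 ratio of LatY136F over wildtype on array 1 (x axis) against array 2 after turning (y axis) for 4331 genes (grey) and the 9 receptors (coloured by coupling); dotted lines mark 2-fold. Ptgir and Ptger4 lie in the upper right corner beyond the lines and Tbxa2r in the lower left one, while the other 6 receptors lie within the lines, inside the cloud of all genes.

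Tbxa2r binds thromboxane A2, known as the platelet-aggregating counterpart of prostacyclin. It gave -1.71 on array 1 and -1.71 on array 2, the closest agreement of the 9 receptors; 98.8% of all genes had a wider difference between the arrays or the same. The mean of -1.71 ± 0.003 corresponds to a 3.27-fold lower level in LatY136F cells and ranked 18 from the bottom. Here the 2 probes agreed in sign and call. Probe 636075 gave -1.82 and -1.87 on arrays 1 and 2, and probe 637287 gave -1.60 and -1.55. Their means lay 0.27 apart, a gap reached by 42.5% of genes with 2 probes. That gap is wider than the difference between the arrays, so the ± of 0.003 understates the uncertainty of the size.

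**Figure D3:**
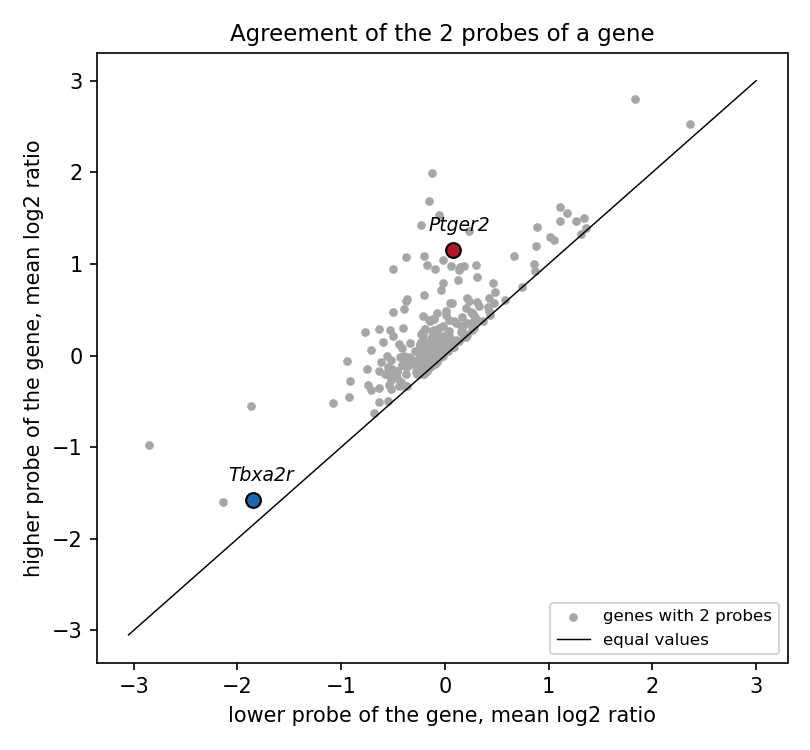
Mean log2 ratio of the lower (x axis) and the higher (y axis) probe of each of 268 genes with 2 probes, with Ptger2 and Tbxa2r coloured and the line of equal values in black. Tbxa2r lies near the line with both probes below -1.5, whereas Ptger2 lies well above it, at 0.08 for one probe and 1.15 for the other.

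The other calcium-raising receptors were not called. Ptgfr, which in the ovary and uterus serves luteolysis and contraction, stood at -0.51 on array 1 and -0.38 on array 2 (-0.44 ± 0.07). Ptger1 had no direction, at -0.67 on array 1 and 0.46 on array 2 (-0.11 ± 0.56). In the deposited columns, before turning, both of its values were negative (-0.204 and -0.131 on the log10 scale), which is the same lack of a common sign seen from the columns; whether dye or noise gave it was not tested. A ± at least that wide was found for 13.2% of genes.

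Of the cAMP-lowering receptors, Ptger3 behaved alike, at -0.13 on array 1 and 0.82 on array 2 (0.35 ± 0.48), with both deposited values negative. Ptgdr2, also called CRTH2 and in humans a surface marker of Th2 cells, stood at 0.38 on array 1 and 0.44 on array 2. The arrays lay close together for this gene (0.41 ± 0.03, 1.33-fold), at a size well short of 2-fold. Beside it, the Th2 genes Il13 (3.39 ± 0.27), Gata3 (2.93 ± 0.02), Il17rb (2.19 ± 0.04) and Batf (2.01 ± 0.23) were higher, and Il4 (1.41 and -0.97 on arrays 1 and 2), Ccr4 (-0.30 and 0.21) and Ccr8 (0.30 and -0.58) had opposite signs on the arrays. Since Th2 genes served to choose the likely direction, their being higher is no independent evidence. In all, the arrays gave 7 of the 9 receptors 1 common sign, as they did 55.8% of all genes.

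The order of the means from high to low was Ptgir, Ptger4, Ptger2, Ptgdr2, Ptger3, Ptger1, Ptgfr, Ptgdr and Tbxa2r. Ptgir and Ptger4 were set off from each other and from the rest on both arrays, and so was Tbxa2r at the other end. The ranges of Ptger2 and Ptgdr2 over the arrays lay side by side without touching, as averages of probes that for Ptger2 disagreed. From Ptgdr2 down to Ptgdr, each receptor's range overlapped that of its neighbour in the order.

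The genes nearest to each called receptor by Euclidean distance over its 2 array values were taken as those with the most similar ratios. Nearest to Ptgir were Il13, a Th2 cytokine (distance 0.24), Asns, asparagine synthetase (0.30), and Fpr2, a formyl peptide receptor (0.35). Smim3 (0.04), Prr13 (0.10) and the neutrophil-attracting chemokine Cxcl2 (0.17) were nearest to Ptger4. Tbxa2r lay closest to Ms4a4b (0.05), the death domain receptor Tnfrsf25 (0.07) and the killer cell lectin receptor Klrd1 (0.07). With 2 values per gene this is a statement about similar ratios only.

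The pathway around the receptors was covered in part. Of 19 listed genes for arachidonate release and prostanoid synthesis only Ptgs2, the inducible cyclooxygenase, was measured. It stood at 1.59 on array 1 and 0.44 on array 2 (1.01 ± 0.57), above 0 on both but not called. None of 9 genes for prostanoid transport and breakdown had a named probe.

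Of the listed and measured genes that carry the cAMP signal from the receptors to CREB, none was called. Over all genes 4.20% were called higher and 0.970% lower, so the lack of calls in lists this short lies near those shares. None of 6 measured G protein subunits passed the 2-fold rule (median 0.09). Gnas, the stimulatory subunit these receptors use, stood at -0.05 on array 1 and 0.05 on array 2, Gnb1 at 0.39 and 0.38 and Gnai2, an inhibitory subunit, at 0.01 and 0.21. The single adenylyl cyclase measured, Adcy6, had opposite signs on the arrays (-0.37 and 0.12). None of 14 measured genes listed for protein kinase A, its anchors and inhibitors, Csk among them, was called. The arrays agreed in sign for 5 of these 14 (median -0.05). The list left out the measured anchor Akap4, which was called higher, at 1.27 on array 1 and 1.23 on array 2 (1.25 ± 0.02). Akap2, Akap3 and Akap7, also left out, had opposite signs on the arrays. Pkig, a protein kinase A inhibitor, stood at -0.88 ± 0.03 and Prkar1a, a regulatory subunit, at 0.72 ± 0.01, each short of 2-fold but alike on both arrays. The catalytic subunit Prkaca stood at 0.01 on array 1 and -0.03 on array 2. Another inhibitor, Pkia, named after its values were seen, had no common sign, at -2.47 on array 1 and 2.23 on array 2. Of 2 phosphodiesterases, which break cAMP down, Pde4a stood at 0.45 ± 0.26 and neither was called. None of 4 genes of the CREB family was called, with Atf4 at 0.22 ± 0.16 and Atf2 at 0.11 ± 0.08.

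Among 10 measured genes that cAMP induces in many cell types, 2 were higher and none lower (median 0.32). Over all genes 4.20% were higher and 0.970% lower. Cdkn1a, the cell cycle inhibitor p21, gave 2.64 on array 1 and 1.49 on array 2 (4.19-fold), and the MAP kinase phosphatase Dusp1 gave 1.01 and 1.05 (2.04-fold), just past the threshold. Rgs2, a regulator of G protein signalling, stood at 0.72 ± 0.09 and Junb at 0.67 ± 0.31. The orphan nuclear receptors Nr4a1 (-0.05 ± 0.09), Nr4a2 and Nr4a3 had opposite signs on the arrays, as did Fos. These genes also answer to antigen receptor and stress signals, so the list does not single out cAMP.

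On the calcium side, 1 of 5 measured genes was lower and none higher, where 0.970% of all genes were lower and 4.20% higher. Prkcb, a protein kinase C activated by calcium and diacylglycerol, gave -1.42 on array 1 and -1.30 on array 2 (2.56-fold lower). The inositol trisphosphate receptors Itpr2 and Itpr3 stood at -0.33 ± 0.05 and -0.19 ± 0.14. None of 4 receptor kinases was called, with Grk5 at 0.41 ± 0.12.

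Of the 4 prostanoid receptors that raise cAMP 2 were called higher. Among other genes listed for this coupling, accessory subunit included, 1 of 20 measured was called higher. That is near the share over all genes, 4.20%. That list does not hold every such receptor measured. The median of the prostanoid receptors was 1.18 and that of the others -0.09, and the difference was not tested. Because the family was picked after Ptgir and Ptger4 stood out in these data, that choice favours such a difference. Calcrl, the receptor for calcitonin gene-related peptide and adrenomedullin, gave 2.38 on array 1 and 2.12 on array 2 (4.75-fold higher). Its partner Ramp1 had opposite signs on the arrays (0.01 and -0.44). Gpr12 stood at 0.52 ± 0.08 and Gpr174, a lymphocyte receptor, at -0.38 ± 0.17. The arrays agreed in sign for 6 of the 20.

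**Figure D4:**
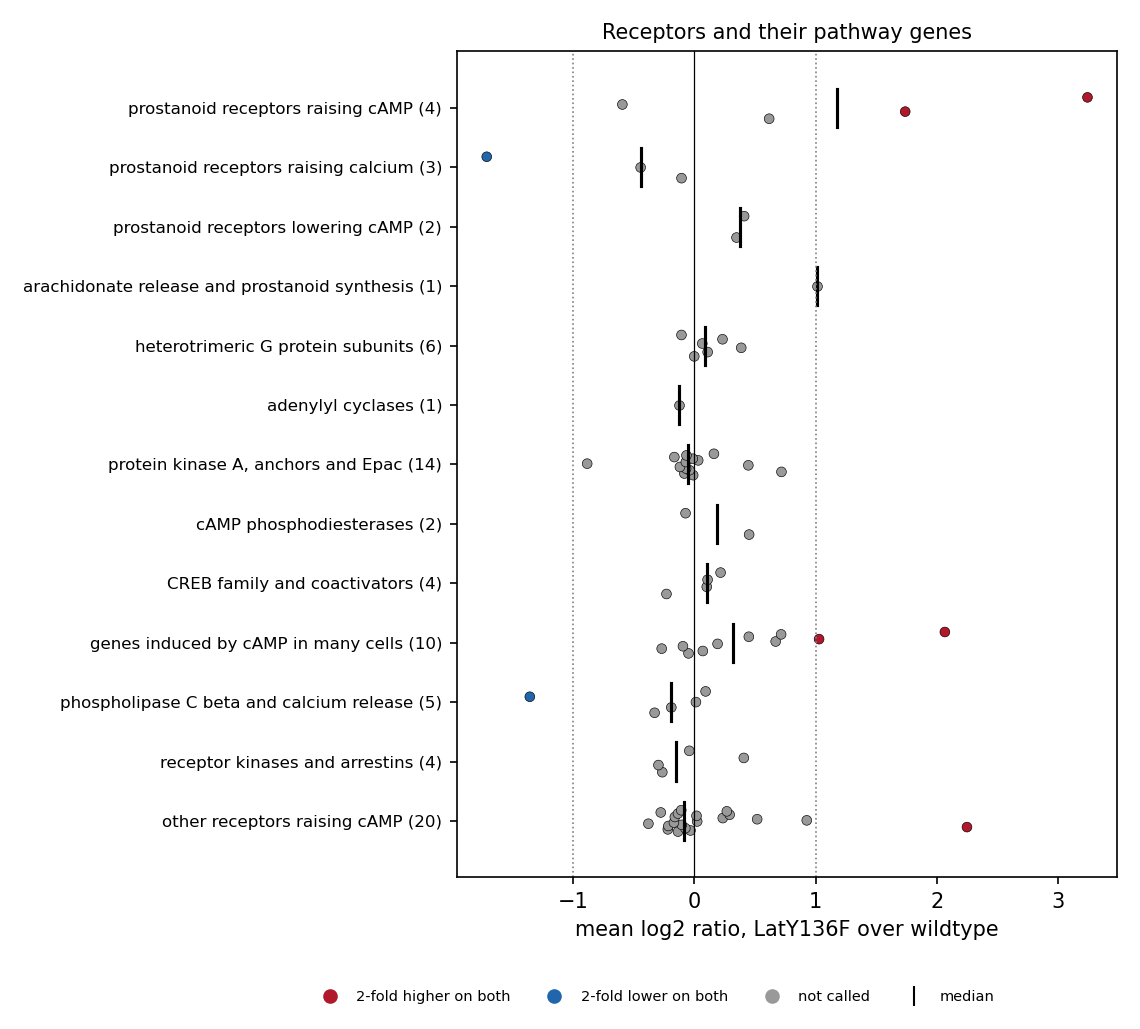
Mean log2 ratio of LatY136F over wildtype (x axis) for each measured gene (points) of the receptor groups and pathway lists (rows, with the number measured), with genes at least 2-fold apart on both arrays coloured and a black bar at each list's median. Apart from the receptors, the called genes are Cdkn1a and Dusp1 among cAMP-induced genes, Prkcb among the calcium genes and Calcrl among other cAMP-raising receptors.

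Prostanoid receptors are also found on other blood cells, and markers of several of these moved beside them. Of 8 T cell identity genes none was called, with a median of -0.05 and members on both sides of 0. Cd247, a signalling chain of the T cell receptor complex, stood at -0.88 ± 0.46 and Cd5, a negative regulator of its signalling, at 0.81 ± 0.11, while Cd4 stood at -0.17 ± 0.09 and Cd3e at -0.01 ± 0.13. Of 12 monocyte and macrophage markers 6 were higher and none lower, where 4.20% of all genes were higher. They were led by C1qc (2.48 ± 0.08), Lyz1 (2.27 ± 0.09) and Vcam1 (1.52 ± 0.11). Not all members rose, since Msr1 lay below 0 on both arrays (-0.45 ± 0.39) and Marco had opposite signs (0.03 and -0.71). Of 6 neutrophil markers 3 were higher, namely Il1r2 (3.62 ± 0.50), Lcn2 (3.14 ± 0.22) and Ngp (2.50 ± 0.16). The part of these cells in the Ptgir and Ptger4 ratios was not tested.

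Tbxa2r, which was lower, is also carried by platelets. Only 3 of 11 listed platelet markers were measured. Of these 2 were higher, Pf4 at 1.55 ± 0.36 and Itga2b at 1.20 ± 0.09, and Itgb3 lay below 0 on both arrays (-0.39 ± 0.18). Over all genes 4.20% were called higher and 0.970% lower. Lower beside Tbxa2r and Prkcb were B cell markers, 6 of 9, with none higher and a median of -1.61. They were led by Cd79b (-2.29 ± 0.18), Ighm (-1.91 ± 0.03), Cr2 (-1.76 ± 0.29) and Cd72 (-1.73 ± 0.14). The means of the 2 Ighm probes lay far apart, at -2.85 and -0.98, so its ± understates the uncertainty of the size. Of 6 natural killer and CD8 T cell markers 2 were lower, Cd8b1 at -2.22 ± 0.02 and Klrd1 at -1.75 ± 0.01. In the same list Klrk1 (1.18 and -1.77 on arrays 1 and 2) and Ncr1 (-0.16 and 0.58) had opposite signs. The part of platelets, B cells, natural killer cells and CD8 T cells in the Tbxa2r ratio was not tested either. Beside Ptgdr2, which basophils and eosinophils carry, none of 6 eosinophil, basophil and mast cell markers was called, although all 6 were above 0 on both arrays, with Ms4a2 at 1.20 ± 0.23 and Ccr3 at 1.00 ± 0.09. Among 6 dendritic cell markers Cst3 alone was called, as higher (1.19 ± 0.05). The median of that list was 0.05, and the arrays agreed in sign for 2 of the 6.

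**Figure D5:**
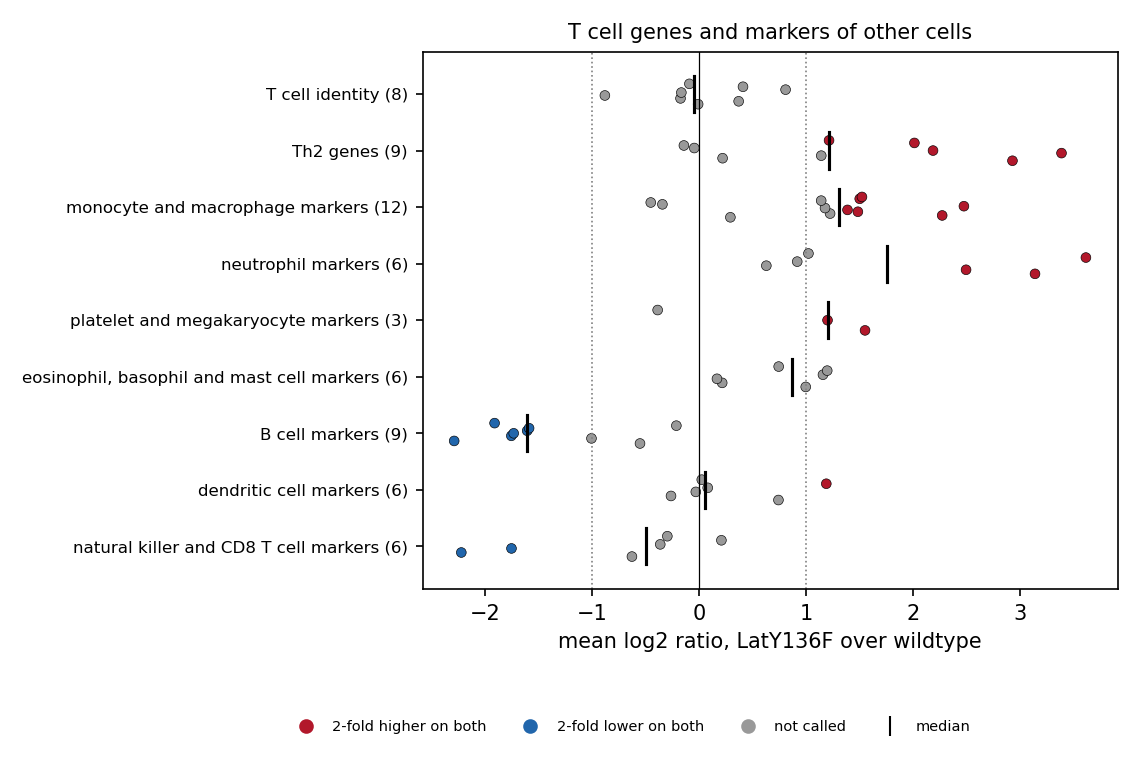
Mean log2 ratio of LatY136F over wildtype (x axis) for each measured gene (points) of T cell, Th2 and other cell type lists (rows, with the number measured), with genes at least 2-fold apart on both arrays coloured and a black bar at each list's median. The T cell identity median lies near 0 with members on both sides, monocyte, neutrophil and platelet medians lie above 1, and the B cell median lies at -1.61.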

How the data were processed

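Per the labels, total RNA of LatY136F and wildtype splenic CD4+ alpha beta T cells was hybridised on 2 two-colour arrays with the dyes reversed. The table deposited by the authors holds 1 log10 ratio per probe and array for 8014 probes; the log base is inferred from the values. The sources used here do not give how the background was corrected, the ratios normalized or probes filtered. The sign of array 2 was turned, log10 ratios were converted to log2 by the factor 3.32, and the median of each array was subtracted. Of the probes, 4654 had a single symbol in the platform annotation, 73 had several and 3287 had none; only the first were named, and probes of a gene were averaged to 4331 genes. Gene identifiers matched the RefSeq gene table (GRCm38.p6) for 4640 probes. Promoter sequences were found for 8 of 9 receptors.

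The receptors, gene lists and thresholds were chosen with earlier results of these data known. The core promoter motifs were chosen after the sequences had been read. Named genes are all receptors, each called gene of a pathway list with the next 2 of largest mean and common sign, up to 4 markers per cell type and the 3 genes nearest each called receptor; Cd4, Cd3e, Prkaca, Gnas, Adcy6, Ramp1, Pkia, Il4, Ccr4, Ccr8, Nr4a1, Nr4a2, Nr4a3 and Fos were added after their values were seen. Csk, Akap2, Akap3, Akap4, Akap7, Msr1, Marco, Klrk1 and Ncr1 were also named after their values were seen. Calls were run on simulated data with known changes, as a check of the code only. The simulated errors were independent between arrays, so errors shared by the arrays, such as a dye bias, were not covered. Computations used Python 3.11.15 with numpy 2.4.6 and pandas 2.3.3, and figures matplotlib 3.10.9. Alternatives covered each array alone, centring, scaling, the probe rule, probes at exactly 0, the threshold, the log base and the sign. The number of arrays limits the precision.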

Additional observations from a re-analysis of the deposited data

How the results depend on the processing

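The 2 receptors called higher and 1 called lower were found with each array alone, without centring, with scaled arrays, without probes at exactly 0, at 1.5-fold on both arrays and at 2-fold on the mean. At 3-fold on both arrays 1 was higher and 1 lower, since Ptger4 missed it on array 1. Turning the sign gives 1 higher and 2 lower. If the table were log2, there would be 0 higher and 0 lower, so the fold sizes depend on the log base. The stronger probe per gene moved Ptger2 to 1.15, which made 3 receptors higher, Tbxa2r to -1.85, the cAMP-raising receptors' median to 1.45 and the monocyte median to 1.396. Without centring Tbxa2r stood at -1.73, and the medians of G protein subunits, T cell identity and Th2 genes at 0.071, -0.066 and 1.20.

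Over all genes, 182 were called higher and 42 lower. A single array, which needs 1 agreement less, gave 341 to 408 higher and 145 to 151 lower. The 1.5-fold threshold gave 339 and 127, the 3-fold one 69 and 19, the turned sign 42 and 182, and the log2 reading 13 and 0.

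On single arrays some list medians moved by more than the standard deviation of the 2 array medians, a measure smaller than the gap between them. The cause was not tested. They ran from -0.67 to -0.38 for calcium-raising receptors, 0.13 on both arrays for G protein subunits, -0.016 to 0.11 for protein kinase A genes, -0.052 to 0.073 for receptor kinases and -0.020 to 0.0061 for other cAMP-raising receptors. For cell type lists they were -0.028 to -0.0042 for T cell identity, 1.41 to 1.42 for Th2 genes, 1.34 to 1.42 for monocyte, 1.86 to 2.18 for neutrophil, 0.38 to 0.93 for eosinophil, basophil and mast cell, 0.23 to 0.40 for dendritic cell and -1.12 to -0.65 for natural killer and CD8 T cell markers. No paired analysis was possible because the arrays form 1 dye-reversal pair of a single group.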
